A study of Homo sapiens with 6 samples.

Results

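The circular RNAs described here come from host genes that encode the nuclear pore and the receptors that carry cargo through it. A junction was included if its host gene symbol begins with XPO, TNPO, IPO, KPNA, KPNB, NUP, RANBP or POM121, or is RANGAP1, TPR or CSE1L. This took 140 of 7746 listed circRNAs, from 39 of 3348 host genes, with 1306 of 66978 back-splice junction reads. They were counted in 3 libraries of PANC-1, a cell line from a human pancreatic duct carcinoma, and in 3 libraries of PANC-1-GR, its Gemcitabine resistant derivative. PANC-1-GR is a single selected line. It was made by stepping the drug up from 0.1 µg/ml until, after 40 weeks, the cells grew at 200 µg/ml, and resistance was kept with 10 µg/ml given from time to time. The PANC-1 libraries have no drug treatment in their labels. PANC-1 is called parental below and PANC-1-GR resistant. Whether a line's libraries were separate cultures is not stated in the labels, so p-values below measure the spread between libraries, which may be technical.

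A circRNA forms when the splice donor at the end of an exon is joined back to the acceptor of the same or an upstream exon, and a read across this back-splice junction marks the circle. Nuclear pore complexes are large rings set into the nuclear envelope, built from nucleoporins in nested layers: the outer Y complex, the inner ring, a central channel lined with FG repeats, cytoplasmic filaments, a nuclear basket and membrane anchors. Importins and transportins carry proteins inward and release them on binding Ran-GTP in the nucleus, whereas exportins bind cargo together with Ran-GTP and release it in the cytoplasm. The junction reads report circles and not the mRNA or protein of these genes, and linear mRNA was not analysed here.

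The back-splice junctions of the circles on which the results turn are shown first, since a junction is the only stretch that separates a circle from its linear transcript. Each line gives the last 20 bases of the last exon in capitals and then the first 20 bases of the first exon in lower case, 5′ to 3′ on the transcript strand, from GENCODE 29 transcripts.
hsa_circ_0001017 of XPO1, exons 2 to 4: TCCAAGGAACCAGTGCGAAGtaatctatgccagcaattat
hsa_circ_0001016 of XPO1, exons 3 to 4: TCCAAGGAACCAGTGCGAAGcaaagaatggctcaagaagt
hsa_circ_0001741 of TNPO3, exons 2 to 4: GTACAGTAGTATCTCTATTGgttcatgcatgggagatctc
hsa_circ_0070039 of NUP54, exons 2 to 5: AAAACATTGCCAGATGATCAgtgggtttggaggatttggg
hsa_circ_0070033 of NUP54, exons 2 to 9: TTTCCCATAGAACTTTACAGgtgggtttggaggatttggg
hsa_circ_0000274 of NUP98, exons 11 to 14: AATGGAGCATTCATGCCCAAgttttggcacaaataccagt
Both XPO1 circles share the capital part, the end of exon 4, and differ in the exon it is joined to. Both NUP54 circles share the lower case part, the start of exon 2, and differ in the donor.

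The libraries held 11964, 11785 and 9429 junction reads in parental cells and 13689, 9222 and 10889 in resistant cells, and TMM factors, which scale these totals, ran from 0.978 to 1.06. Levels are therefore given per 10000 junction reads of a library. Each junction is a single site, so levels of circles were set side by side with no length correction. Of 9 duct and epithelial marker genes, KRT19 alone had a listed circle, with 3 reads, and none of the 17 marker genes of blood, endothelial, fibroblast, acinar or endocrine cells had one. A marker without a circle says nothing of its mRNA.

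Nuclear pore and transport circles made up the same order of the junction reads in both lines. Their summed level was 189.7, 223 and 195 per 10000 in the parental libraries and 189, 179 and 191 in the resistant libraries. The means were 203 ± 17.9 (SD, n = 3) and 186 ± 6.52 (SD, n = 3), and the lines overlapped. The summed reads, 674 against 632, gave a ratio of PANC-1-GR to PANC-1 of 0.920 with a 95% Clopper-Pearson interval of 0.824 to 1.03. This interval and those below cover counting error alone, because the reads of a line's libraries were pooled and the spread between libraries was left out. PCR copies of a molecule could not be told from new molecules, so the counting error itself may be larger. In bulk libraries, fewer cells with a circle and less of it per cell cannot be told apart either.

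These genes gave more circles per host gene than the table at large, 3.59 against 2.31, and their circles spanned less of the genome, with a median of 5314.5 bp against 9448.5 bp. Of the 140 circles, 128 (91.4%) were in the exonic category against 85.0% of all listed circles, 11 were listed as sense overlapping and 1 as intronic. A circBase ID was given for 89 (63.6%), against 59.7% of the table. All 128 exonic circles matched 1 pair of annotated exons by span and spliced length, and the median circle held 3.5 exons against 3 for the table. Circles that begin at exon 2 made up 14.8% of the 128, against 33.1% of the 6349 matched circles of the table, yet they carried 39.1% of the members' matched reads, against 45.3%. These shares describe the annotation and were not tested.

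Most of the circles were scarce. The median was 3.5 reads over the 6 libraries, 87 (62.1%) had 2 to 4 reads, and 54 (38.6%) were read in 1 library only, against 31.4% of the table. The table lists only circles with at least 2 reads in 1 library. Reads were found only in parental cells for 37 circles (26.4%, against 20.9% of the table) and only in resistant cells for 28 of the 140 (against 19.6% of the table), and 18 were read in all 6 libraries (12.9%, against 12.5%). These shares were not tested. In reads over all libraries, hsa_circ_0001017 of XPO1 ranked 7th of 7746, hsa_circ_0001016 of XPO1 30th, hsa_circ_0001741 of TNPO3 60th, hsa_circ_0070039 of NUP54 109th and hsa_circ_0000274 of NUP98 169th. By number of circles, NUP98 with 26 ranked 3rd and XPO1 with 16 ranked 9th of 3348 host genes.

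The comparison of the lines used edgeR's quasi-likelihood test, fitted to the whole table, for each circle and for the reads summed over each host gene. A feature entered with 3 or more reads in 3 or more libraries and was called at a 2-fold or greater difference with an unadjusted p up to 0.05. Among 16 tested member circles, 1 was called, the TNPO3 circle, which was lower in resistant cells. Over all 969 tested circles 4.23% were called, 2.79% higher and 1.44% lower. Among 21 tested member host genes, 1 was called, CSE1L, which was higher, where 3.66% of all 1093 tested host genes were called, 1.56% higher and 2.1% lower. No member passed a Benjamini-Hochberg adjusted p of 0.05 in edgeR's quasi-likelihood test, with a smallest adjusted p of 0.930 for circles and 0.617 for host genes, nor with DESeq2, limma-voom or the exact test of edgeR. Of all tested circles 0.0% passed it and of all tested host genes 0.0915%. At an unadjusted p up to 0.05 there was 1 member circle (5.06% of all tested circles) and there were 3 member host genes, CSE1L, TNPO3 and NUP98 (5.76% of all tested host genes). The libraries of the lines did not overlap for 3 of the 16 circles, against 10.8% of all, and for 4 of the 21 host genes, against 10.6%. The median log2 fold change of PANC-1-GR against PANC-1 was 0.03 for member circles and -0.02 for member host genes, beside -0.04 and 0.00 over all tested features. With 16 and 21 features tested, these counts were too small to be set apart from the background.

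**Figure D1:**
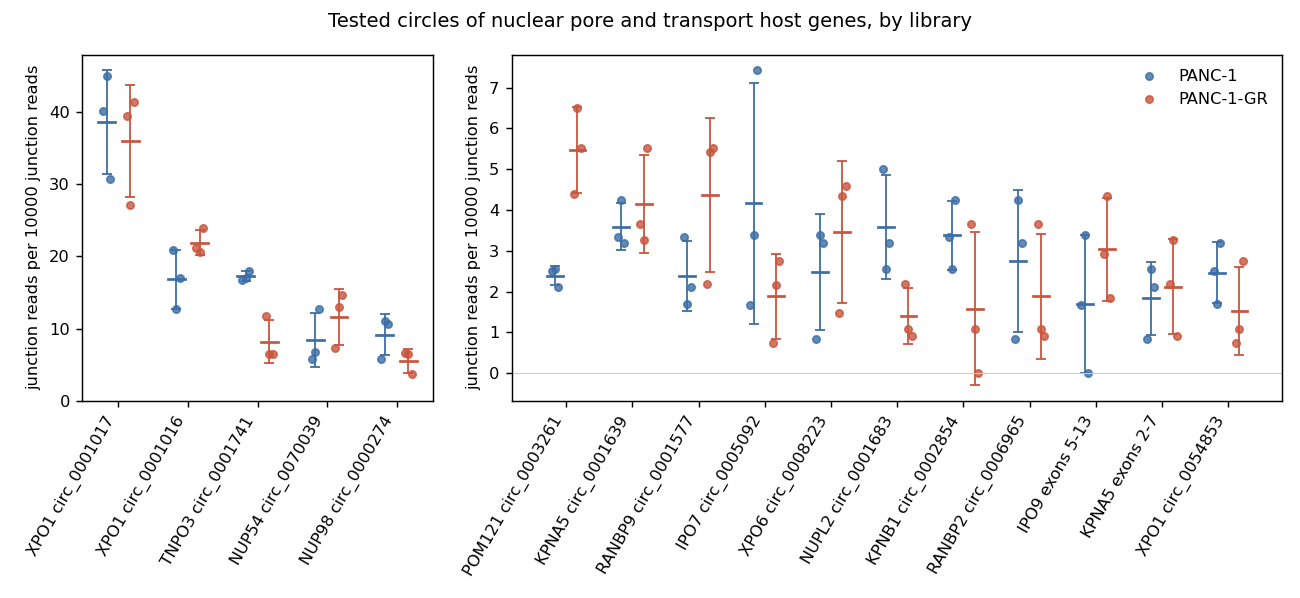
Level of each of the 16 tested circles by library, per 10000 junction reads of a library, for PANC-1 (blue) and PANC-1-GR (red), with points for libraries, a horizontal bar for the mean and whiskers for 1 SD (n = 3). The 5 circles with the most reads are on the left with their own axis, where the 3 PANC-1 points of the TNPO3 circle sit above its 3 PANC-1-GR points. The other 11 circles lie below 8.

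Import receptors gave fewer junction reads in resistant cells. The 8 host genes of this group, KPNB1, which encodes importin beta, 4 further importins and 3 transportins, had 47, 54 and 43 reads in parental cells and 47, 21 and 23 in resistant cells. Their summed level was 43.6 ± 3.71 (SD, n = 3) per 10000 in parental cells and 26.1 ± 7.20 (SD, n = 3) in resistant cells, a read ratio of 0.620 with a counting interval of 0.472 to 0.812, and the libraries of the lines did not overlap. TNPO3 gave 91 of these 235 reads, and without it the group had 84 reads against 60, a ratio of 0.701 (0.495 to 0.988), and the libraries overlapped. Of the 23 circles of the group, 8 were read in parental cells alone, against 20.9% of all listed circles. In resistant cells alone there were 2, against 19.6%. The sum without TNPO3 still holds the 9 reads of IPO8, whose circles were all listed through parental reads. The group is described by its sum and was given no test.

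The TNPO3 circle had the smallest p of the tested circles of these genes. TNPO3 encodes transportin-SR, an import receptor for serine/arginine-rich splicing factors. Its main circle, hsa_circ_0001741, joins exons 2 to 4 of 23, spans chr7:128655033-128658211 of hg19 on the minus strand and is 432 nt long when spliced. It had 20, 20 and 17 reads in parental cells and 16, 6 and 7 in resistant cells. The parental libraries were tightly grouped and all of them above the resistant libraries, of which the first was the highest. Its level was 17.2 ± 0.696 (SD, n = 3) per 10000 in parental cells and 8.21 ± 3.01 (SD, n = 3) in resistant cells. In edgeR's quasi-likelihood test the log2 fold change was -1.02 with a standard error of 0.37, an unadjusted p of 0.0054 and a Benjamini-Hochberg adjusted p of 0.930. The call rests on a fold close to the threshold. Without the filter the log2 fold change was -0.97, without resistant library 2 it was -0.89 and without resistant library 3 it was -0.87, each below the 2-fold threshold. A second TNPO3 circle, hsa_circ_0082250 of exons 15 to 16, had 5 reads, so the gene as a whole followed the first circle, with a log2 fold change of -0.96 and an unadjusted p of 0.0068 in edgeR's quasi-likelihood test. The gene passed the 2-fold threshold, at -1.49, without resistant library 1, at -1.01 with limma-voom and at -1.03 with at least 10 reads in 3 libraries.

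IPO8 had circles in parental cells only. IPO8 encodes importin 8, which carries Argonaute proteins among other cargo. Its 4 circles had 2, 4 and 3 reads in the parental libraries and 0 in each resistant library. Every parental library held reads of this gene, but no single circle was read in all 3 of them. Taking 3 reads over the line as the floor of a count of 0, the level was 3.06-fold lower in resistant cells. The counting interval of the read ratio reached up to 0.497. IPO8 did not pass the filter. In edgeR's quasi-likelihood test without the filter its unadjusted p was 0.0054 and its Benjamini-Hochberg adjusted p was 0.774. A circle was listed only with at least 2 reads in 1 library, and all 4 IPO8 circles met this in parental libraries alone. The gene was thus counted through the line where it was high, so this p is no support for a difference. Without the filter 3 member host genes were called, where 2.45% of all host genes were: IPO8, NUP133 and CSE1L. The IPO8 total includes a pair of junctions whose ends lie 3 bp apart and outside the exonic category, with 2 reads each.

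The close relative IPO7, importin 7, which imports ribosomal proteins and histone H1, had 8, 6 and 9 reads in parental cells and 3, 4 and 6 in resistant cells over 6 circles. Its log2 fold change was -0.81 with a standard error of 0.56 and an unadjusted p of 0.150 in edgeR's quasi-likelihood test. Its leading circle, hsa_circ_0005092 of exons 15 to 16, had 2, 4 and 7 reads against 1, 2 and 3, and the lines overlapped, but it became a call without parental library 1, with an unadjusted p of 0.048 in edgeR's quasi-likelihood test. KPNB1 had 15 reads in parental cells and 16 in resistant cells over 3 circles, and its pair of main circles ended at the same exon 10. The longer one, hsa_circ_0002854 of exons 7 to 10, had 4, 3 and 4 reads against 5, 1 and 0, and the shorter one, hsa_circ_0000779 of exons 8 to 10, had 0, 2 and 2 against 3, 2 and 3. The longer circle thus took 73.3% of KPNB1 reads in parental cells (counting interval 44.9 to 92.2) and 37.5% in resistant cells (15.2 to 64.6), intervals that overlap. Without resistant library 1 the longer circle became a call, with a log2 fold change of -2.51 and an unadjusted p of 0.0498 in edgeR's quasi-likelihood test. IPO11 with 13 reads against 9, IPO9 with 10 against 12 and TNPO1 with 8 against 8 had log2 fold changes between -0.52 and 0.25, none with an unadjusted p under 0.05. The IPO9 circle of exons 5 to 13, which has no circBase ID, had 2, 4 and 0 reads against 4, 4 and 2, with a log2 fold change of 0.67 and an unadjusted p of 0.421 in edgeR's quasi-likelihood test. TNPO2 had 6 reads against 2 in a single circle and was not tested.

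**Figure D2:**
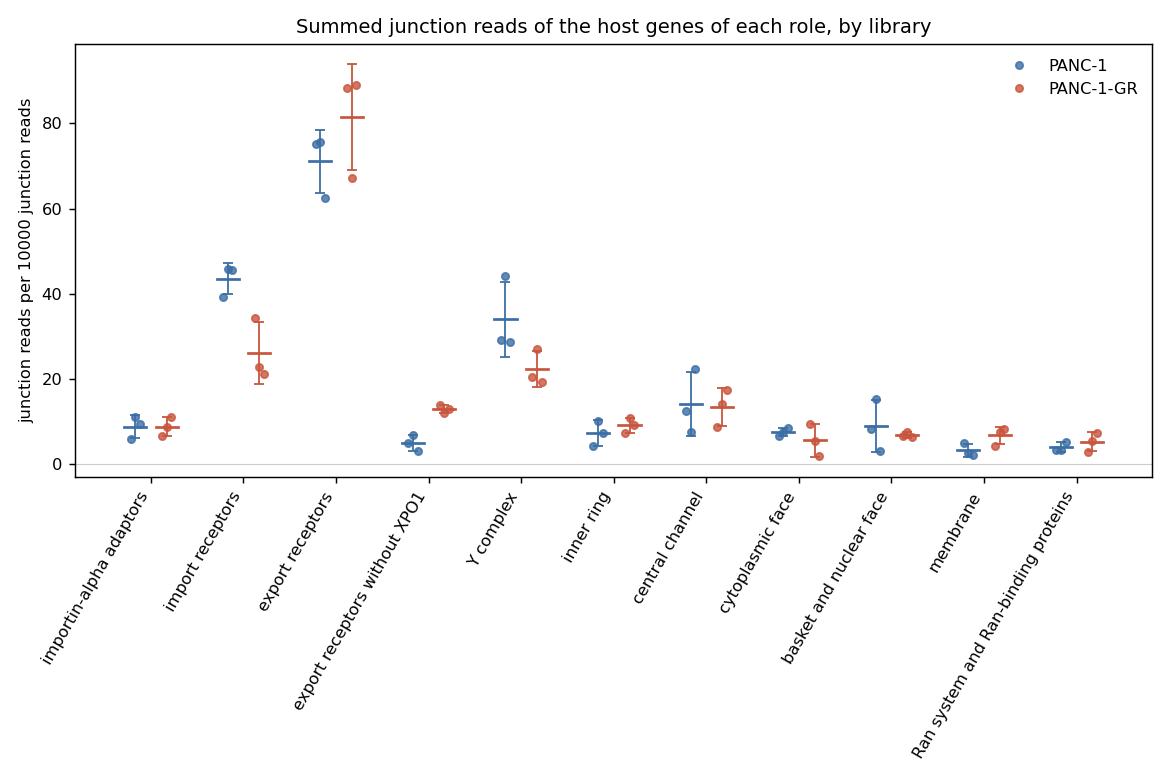
Summed level of the host genes of each role by library, in junction reads per 10000 junction reads, for PANC-1 (blue) and PANC-1-GR (red), with the mean (horizontal bar) and 1 SD (whiskers, n = 3). The libraries of the lines are apart for the import receptors and the Y complex, with PANC-1-GR lower, and for the export receptors other than XPO1, with PANC-1-GR higher, and overlap for the other groups drawn.

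Export receptors held the most reads, and 457 of their 518 were from XPO1. XPO1 encodes CRM1, the receptor of proteins with leucine-rich nuclear export signals. It ranked 8th of 3348 host genes by junction reads and had 84, 81 and 56 reads in parental cells and 102, 51 and 83 in resistant cells. Its level was 66.1 ± 5.87 (SD, n = 3) per 10000 in parental cells and 68.7 ± 11.6 (SD, n = 3) in resistant cells, and the libraries overlapped. The log2 fold change was 0.09 with a standard error of 0.16 and an unadjusted p of 0.589 in edgeR's quasi-likelihood test, and the read ratio of 1.05 had a counting interval of 0.869 to 1.27.

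Of the 16 XPO1 circles, 3 ended at the donor of exon 4 and together they held 389 of 457 reads (85.1%). The larger, hsa_circ_0001017, lies at chr2:61749746-61761038 of hg19 on the minus strand, joins exons 2 to 4 of 25, includes the start codon and is 307 nt long. It had 48, 53 and 29 reads in parental cells and 54, 25 and 45 in resistant cells, with a log2 fold change of -0.11 and a standard error of 0.22. The smaller, hsa_circ_0001016, begins at exon 3 and had 25, 15 and 16 reads in parental cells and 29, 19 and 26 in resistant cells, with a log2 fold change of 0.36 and a standard error of 0.30. Libraries overlapped for both circles and neither had an unadjusted p under 0.05 in edgeR's quasi-likelihood test. The smaller circle made up 25.3% of XPO1 reads in parental cells (counting interval 19.7 to 31.6) and 31.4% in resistant cells (25.5 to 37.7). The larger made up 58.8% (52.0 to 65.4) and 52.5% (46.0 to 59.1), so both shares overlapped between the lines.

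The whole smaller circle is only 175 nt, 102 nt of exon 3 in lower case and 73 nt of exon 4 in capitals, and is printed to show what both abundant XPO1 circles have in common, since hsa_circ_0001017 is the same stretch with the 132 nt of exon 2 before it.
hsa_circ_0001016 of XPO1, whole circle: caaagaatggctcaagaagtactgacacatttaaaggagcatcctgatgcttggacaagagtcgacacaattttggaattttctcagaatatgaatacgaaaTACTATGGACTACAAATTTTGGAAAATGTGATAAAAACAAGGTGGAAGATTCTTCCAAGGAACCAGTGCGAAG
The other 14 XPO1 circles had 35 reads in parental cells and 38 in resistant cells. Of these, 3 shared the acceptor of exon 17, with 18 and 15 reads, among them hsa_circ_0054853 of exons 17 to 23, with 3, 2 and 3 reads against 1, 1 and 3 and a log2 fold change of -0.68 with an unadjusted p of 0.482 in edgeR's quasi-likelihood test, and 3 ended at exon 24, with 2 and 9.

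**Figure D3:**
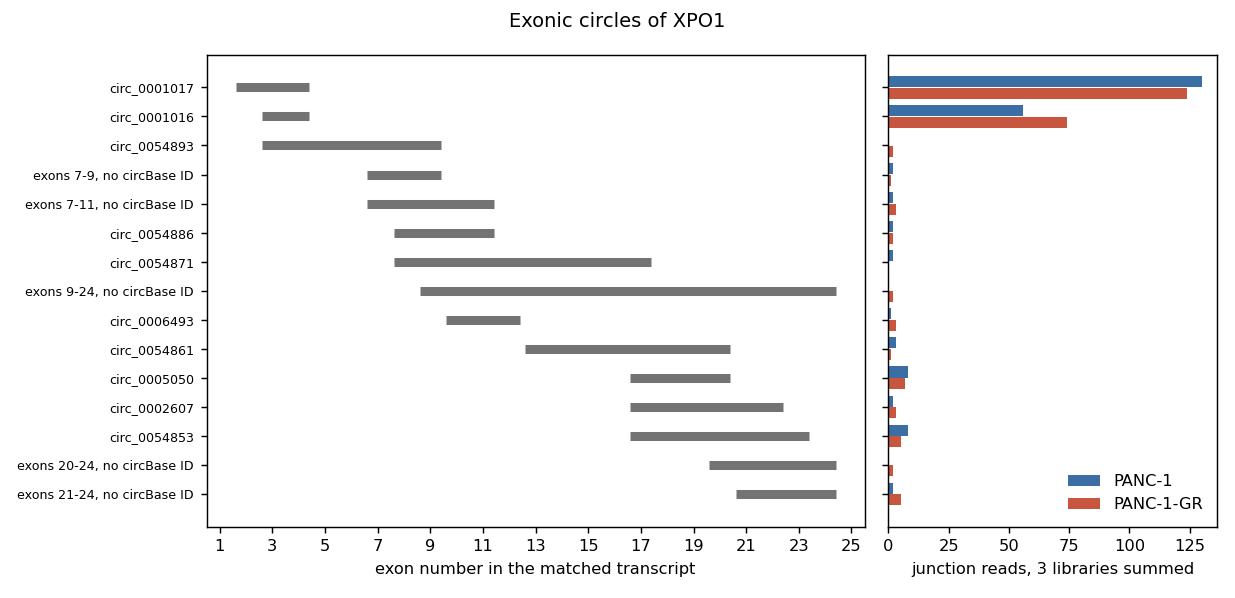
Exons joined by each of the 15 exonic XPO1 circles, by exon number in the matched transcript of 25 exons (left), and junction reads summed over the 3 libraries of PANC-1 (blue) and of PANC-1-GR (red) on the right. The circles of exons 2 to 4 and 3 to 4 hold 384 of the 457 reads of the gene, in like amounts in both lines.

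The remaining export receptors stood at low levels and were higher in resistant cells in sum. CSE1L, XPO4, XPO5 and XPO6 together had 6, 8 and 3 reads in parental cells and 19, 11 and 14 in resistant cells. Their level was 5.00 ± 1.8 (SD, n = 3) per 10000 in parental cells and 12.9 ± 0.976 (SD, n = 3) in resistant cells, a read ratio of 2.54 with a counting interval of 1.42 to 4.74, and the libraries did not overlap. Leaving XPO1 out of the group was chosen after the values were seen, so the sum is given with no test. Of the 13 circles in the sum, 7 were read in resistant cells alone, against 19.6% of all listed circles. In parental cells alone there were 2, against 20.9%. The sum thus rests in part on circles that were listed through the line where they were high.

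CSE1L encodes the exportin that returns importin alpha to the cytoplasm. Its 5 circles had 3, 2 and 0 reads in parental cells and 7, 4 and 6 in resistant cells, and every resistant library was above every parental library. The log2 fold change was 1.70 with a standard error of 0.78, an unadjusted p of 0.031 and a Benjamini-Hochberg adjusted p of 0.838 in edgeR's quasi-likelihood test. The unadjusted p was 0.078 with DESeq2 and 0.086 with limma-voom, and in edgeR's quasi-likelihood test it was 0.108 without parental library 3, 0.079 without resistant library 1 and 0.066 without resistant library 3. With 1 library left out the log2 fold change ran from 1.22, without parental library 3, to 2.29, without parental library 1. The circle with the most reads, hsa_circ_0060762 of exons 20 to 24 of 25, had 1, 1 and 0 reads against 5, 1 and 2. All CSE1L circles but hsa_circ_0060732 were listed through their resistant reads alone. The gene was thus counted mostly through the line where it was high, so its p-values and call are no support for a difference.

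XPO6 encodes exportin 6, the nuclear export receptor of profilin-actin. It had 1, 4 and 3 reads in parental cells and 10, 4 and 6 in resistant cells, a log2 fold change of 1.26 and a standard error of 0.67 and an unadjusted p of 0.062 in edgeR's quasi-likelihood test. It became a call without parental library 2 and without resistant library 2, where the unadjusted p was 0.047 and 0.044 in edgeR's quasi-likelihood test, and with limma-voom, where it was 0.048. The lines did not overlap in level. The circle read in all 6 libraries, hsa_circ_0008223 of exons 5 to 6, had 8 reads in parental cells and 11 in resistant cells. The other XPO6 circles were read in resistant cells alone, and mostly in its first library. There hsa_circ_0038816 of exons 7 to 9 had 5, 0 and 1 reads, and hsa_circ_0006012 of exons 13 to 17 had 3, 0 and 0. In edgeR's quasi-likelihood test without the filter, hsa_circ_0038816 was called with an unadjusted p of 0.030 and a Benjamini-Hochberg adjusted p of 0.696, and 1.6% of all circles were called in that fit. This circle was listed through its resistant reads alone, so this p is no support for a difference. The same holds for hsa_circ_0006012, and these circles gave 9 of the resistant reads of XPO6. The p-values and calls of the host gene include these reads and are therefore no support for a difference either. XPO5, the receptor of pre-miRNAs, had 4 reads against 5 over 4 circles, and XPO4 had 2 reads in a single resistant library.

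The importin alpha adaptors, which bind classical import signals and link them to importin beta, had 29 reads in each line. KPNA5 gave 48 of the 58, with 7, 11 and 7 reads in parental cells and 9, 6 and 8 in resistant cells and a log2 fold change of -0.12. Its main circle, hsa_circ_0001639 of exons 5 to 7, had 4, 5 and 3 reads against 5, 3 and 6. The circle of exons 2 to 7, which has no circBase ID, had 1, 3 and 2 reads against 3, 3 and 1, and the lines overlapped. The longer hsa_circ_0006146 of exons 3 to 12 had 2, 3 and 2 reads against 1, 0 and 1, with no overlap between the lines, but was below the filter. KPNA1, KPNA3 and KPNA4 had 2 to 4 reads each.

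Among nucleoporins the Y complex group stood lower in resistant cells, and this was largely NUP98. The 6 host genes had 114 reads in parental cells and 74 in resistant cells, a ratio of 0.637 (0.469 to 0.861), and a level of 34.0 ± 8.77 (SD, n = 3) per 10000 against 22.3 ± 4.22 (SD, n = 3). Without NUP98 they had 25 reads against 18, a ratio of 0.707 (0.363 to 1.35), and the libraries overlapped. Of the 40 circles of the group, 17 were read in parental cells alone, against 20.9% of all listed circles. In resistant cells alone there were 8, against 19.6%. NUP98 encodes a precursor that is cut into Nup98, an FG nucleoporin, and Nup96, a member of the Y complex. All NUP98 circles were counted in this group, whichever of these proteins their exons encode. It had 23, 40 and 26 reads in parental cells and 24, 18 and 14 in resistant cells, and parental library 2 was the highest library. The level was 26.9 ± 7.38 (SD, n = 3) per 10000 against 16.6 ± 3.42 (SD, n = 3). The log2 fold change was -0.67 with a standard error of 0.28, an unadjusted p of 0.018 and a Benjamini-Hochberg adjusted p of 0.753 in edgeR's quasi-likelihood test. It was short of 2-fold, the lines overlapped in level, and the unadjusted p in edgeR's quasi-likelihood test was 0.172 without parental library 2 and 0.097 without resistant library 3.

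The 26 NUP98 circles reached from exon 2 to exon 31 of 33 and shared a few splice sites. The acceptor of exon 11 was used by 6 of them and held 71 of 145 reads, 44 in parental cells and 27 in resistant cells. The main circle, hsa_circ_0000274 of exons 11 to 14 at chr11:3752621-3774638 of hg19 on the minus strand, had 7, 13 and 10 reads against 9, 6 and 4, a log2 fold change of -0.70 and a standard error of 0.47. It made up 33.7% of NUP98 reads in parental cells and 33.9% in resistant cells.

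At other NUP98 splice sites the reads were divided unequally between the lines. The 4 circles that end at the donor of exon 8 had 5, 5 and 5 reads in parental cells and 0, 2 and 1 in resistant cells, a ratio of 0.196 (0.0364 to 0.694). Of these, hsa_circ_0007401 of exons 5 to 8 had 1, 3 and 5 reads against 0, 0 and 0, which was 3.06-fold lower with 3 reads over the line as the floor. The counting interval of its read ratio reached up to 0.497. In edgeR's quasi-likelihood test without the filter its unadjusted p was 0.0054 and its Benjamini-Hochberg adjusted p was 0.696. This circle was listed through its parental reads alone, so this p is no support for a difference. In contrast, the 4 circles that begin at the acceptor of exon 21 had 1, 0 and 0 reads in parental cells and 5, 3 and 5 in resistant cells, a ratio of 12.8 with a counting interval of 1.92 to 542. The other 22 circles had 88 reads against 43. The libraries of the lines did not overlap at either site. These sites were picked after their values were seen and get no test. For scale, the table holds 310 acceptors that are shared by at least 3 circles and have at least 10 reads, and the lines did not overlap at 10.3% of them, 5.81% higher and 4.52% lower. At 0.323% of them, which is this acceptor alone, PANC-1-GR was at least 10-fold higher. Of 176 such donors 7.95% did not overlap, and 1.14%, this donor among them, were at least 5-fold lower. Both fold cut-offs lie close to the ratios of the picked sites, and each is given in the direction of its site only. The shares at these cut-offs therefore follow from the pick and are no measure of chance. Every circle at the acceptor of exon 21 was listed through its resistant reads alone. At the donor of exon 8, every circle with parental reads was listed through those reads alone.

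**Figure D4:**
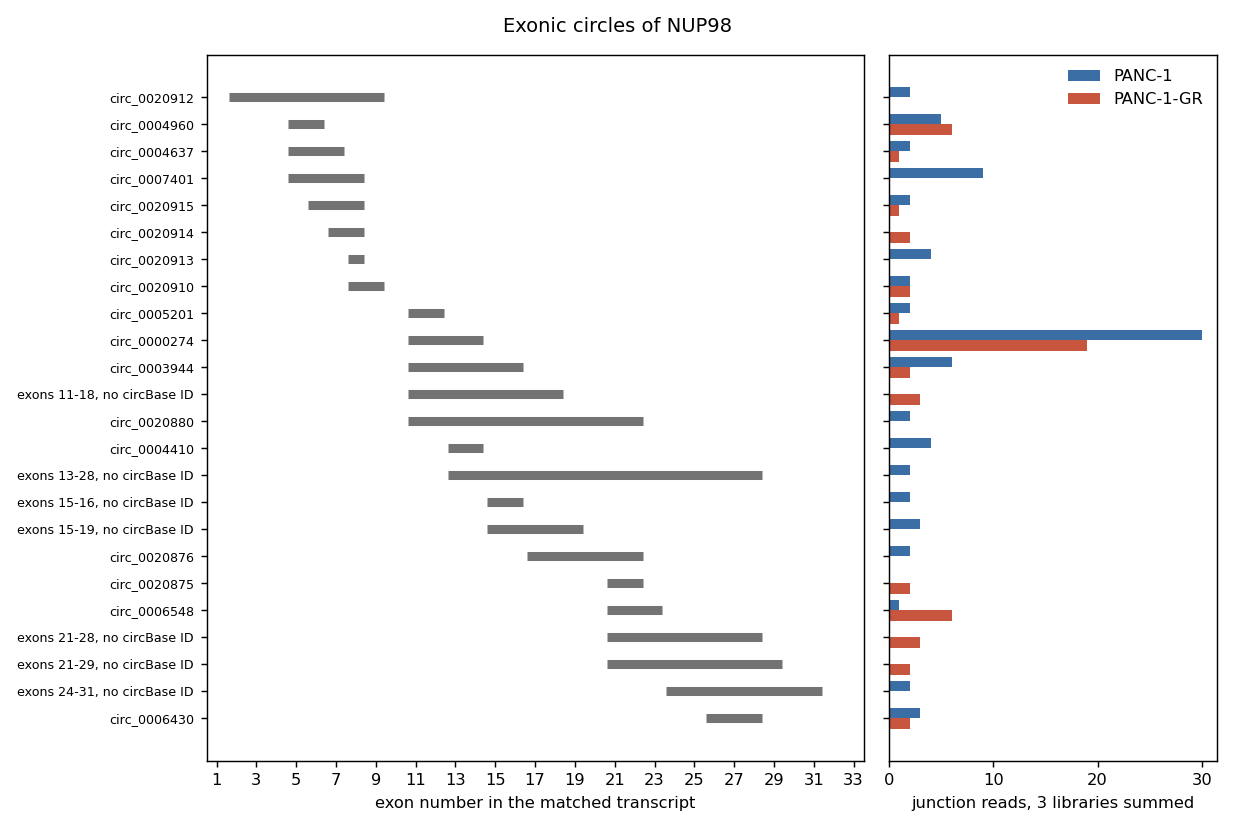
Exons joined by each of the 24 exonic NUP98 circles, by exon number in the matched transcript of 33 exons (left), and junction reads summed over the 3 libraries of PANC-1 (blue) and of PANC-1-GR (red) on the right. The circle of exons 11 to 14 has 30 and 19 reads. The 4 circles starting at exon 21 have 1 blue and 13 red reads, and the 4 ending at exon 8 have 15 and 3.

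Of the other Y complex genes, NUP133 had 8, 1 and 0 reads in parental cells and 0 in each resistant library. The first parental library held 8 of the 9, in 4 circles of 2 reads each, so the difference rests on that library. In edgeR's quasi-likelihood test without the filter it had an unadjusted p of 0.0061 and a Benjamini-Hochberg adjusted p of 0.774. Its circles were listed through their parental reads alone, so this p is no support for a difference. NUP107 had 0, 3 and 1 reads against 3, 2 and 3, of which hsa_circ_0003599 of exons 12 to 18 had 0, 1 and 0 against 3, 2 and 3, with no overlap and below the filter. NUP160 had 2, 6 and 0 reads against 0, 3 and 4, and NUP85 and NUP43 had 3 or 4 reads each.

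In the central channel, NUP54 had similar summed reads in both lines. NUP54 encodes an FG nucleoporin that lines the channel with Nup62 and Nup58. It had 15, 9 and 18 reads in parental cells and 12, 13 and 19 in resistant cells, a log2 fold change of 0.06 and a standard error of 0.35. All 5 NUP54 circles began at the acceptor of exon 2 and differed in their donor. The main one, hsa_circ_0070039 of exons 2 to 5 at chr4:77055328-77065626 of hg19 on the minus strand, had 7, 8 and 12 reads against 10, 12 and 16, a log2 fold change of 0.45 and a standard error of 0.41. Neither sum nor main circle had an unadjusted p under 0.05 in edgeR's quasi-likelihood test.

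The longer hsa_circ_0070033 of exons 2 to 9, 1097 nt against 643 nt for the main circle, had 5, 1 and 3 reads in parental cells and 1, 0 and 0 in resistant cells. The study picked this circle from these libraries, so its direction here is no independent evidence. The study also assayed it by qRT-PCR and reported that the assayed circles followed the trend of the sequencing. Its text lists this circle as both up and down, and its list of top circles gives it as down. Its unadjusted p in edgeR's quasi-likelihood test without the filter was 0.034, and its Benjamini-Hochberg adjusted p was 0.696. The circle was listed through its parental reads alone, so this p is no support for a difference. It took 33.3%, 11.1% and 16.7% of NUP54 reads in the parental libraries and 8.33%, 0% and 0% in the resistant libraries, so every parental library was above every resistant library. Pooled, its share was 21.4% (counting interval 10.3 to 36.8) in parental cells and 2.27% (0.0575 to 12) in resistant cells, intervals that overlap. The main circle took 64.3% (48.0 to 78.4) and 86.4% (72.6 to 94.8), with 46.7%, 88.9% and 66.7% in the parental libraries and 83.3%, 92.3% and 84.2% in the resistant libraries, which overlap, as do the pooled intervals. The division of NUP54 reads among its circles was not tested. NUPL1, the gene of Nup58, had 3 reads in a single parental library.

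The inner ring genes, which bridge the outer rings and the channel, had 24 reads in parental cells and 30 in resistant cells. NUP35 had 2, 5 and 0 reads against 4, 7 and 4, with a log2 fold change of 1.09, a standard error of 0.75 and an unadjusted p of 0.148 in edgeR's quasi-likelihood test. With 1 library left out the log2 fold change ran from 0.60, without parental library 3, to 2.18, without parental library 2, where the unadjusted p of 0.036 in edgeR's quasi-likelihood test made it a call. Most NUP35 circles, among them the 3 with the most reads, were listed through their resistant reads alone. The p-values and the call of NUP35 are therefore no support for a difference. NUP155 had 9 reads against 8 over 6 circles, and NUP205 had 8 against 7. In the nuclear basket NUP153, an FG nucleoporin that anchors the basket, had 7, 14 and 3 reads against 7, 6 and 7 over 8 circles, with a log2 fold change of -0.25. NUP50 had 5 reads against 3, and TPR, the filament protein of the basket, had 2 reads in a single parental library.

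On the cytoplasmic face, NUPL2 had 7, 4 and 4 reads in parental cells and 5, 4 and 1 in resistant cells, a log2 fold change of -0.57. Its larger circle, hsa_circ_0001683 of exons 2 to 3, had 6, 3 and 3 reads against 3, 1 and 1. The lines did not overlap in its level, 3.58 ± 1.28 (SD, n = 3) against 1.40 ± 0.692 (SD, n = 3) per 10000, yet its unadjusted p was 0.130 in edgeR's quasi-likelihood test. The companion circle of exon 2 alone, hsa_circ_0005096, had 3 reads against 5. RANBP2, the gene of the large filament protein Nup358, had 1, 5 and 3 reads against 5, 1 and 1 in a single circle, hsa_circ_0006965. It has near-identical copies in the genome, so its reads are uncertain. NUP214 had 1 read against 3.

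Among the membrane nucleoporins, POM121 had 3, 3 and 2 reads in parental cells and 6, 6 and 8 in resistant cells, and all 3 resistant libraries were higher. POM121 encodes a transmembrane protein that helps anchor the pore. Its level was 2.39 ± 0.235 (SD, n = 3) per 10000 against 6.08 ± 1.53 (SD, n = 3). The log2 fold change was 1.29 with a standard error of 0.67, an unadjusted p of 0.054 and a Benjamini-Hochberg adjusted p of 0.859 in edgeR's quasi-likelihood test. Without resistant library 1 the unadjusted p was 0.045 in edgeR's quasi-likelihood test, which made it a call. The circle hsa_circ_0003261 held 26 of its 28 reads, with 3, 3 and 2 against 6, 6 and 6. POM121 and POM121C are near-identical paralogs, and the authors' mapping could divide reads between them. POM121C itself had 3 reads against 2.

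The Ran-side members had few circles. RANBP9, which encodes a scaffold protein named for binding Ran, had 4, 2 and 4 reads against 3, 5 and 6, a log2 fold change of 0.48 and a standard error of 0.70. Its hsa_circ_0001577 of exons 6 to 12 had 4, 2 and 2 reads against 3, 5 and 6, and the lines overlapped. RANGAP1, the GTPase activator that sets the Ran gradient, had 3 reads in each line. NUP62CL, which the symbol rule also took, was given no pore role here and had 2 reads in a single resistant library.

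**Figure D5:**
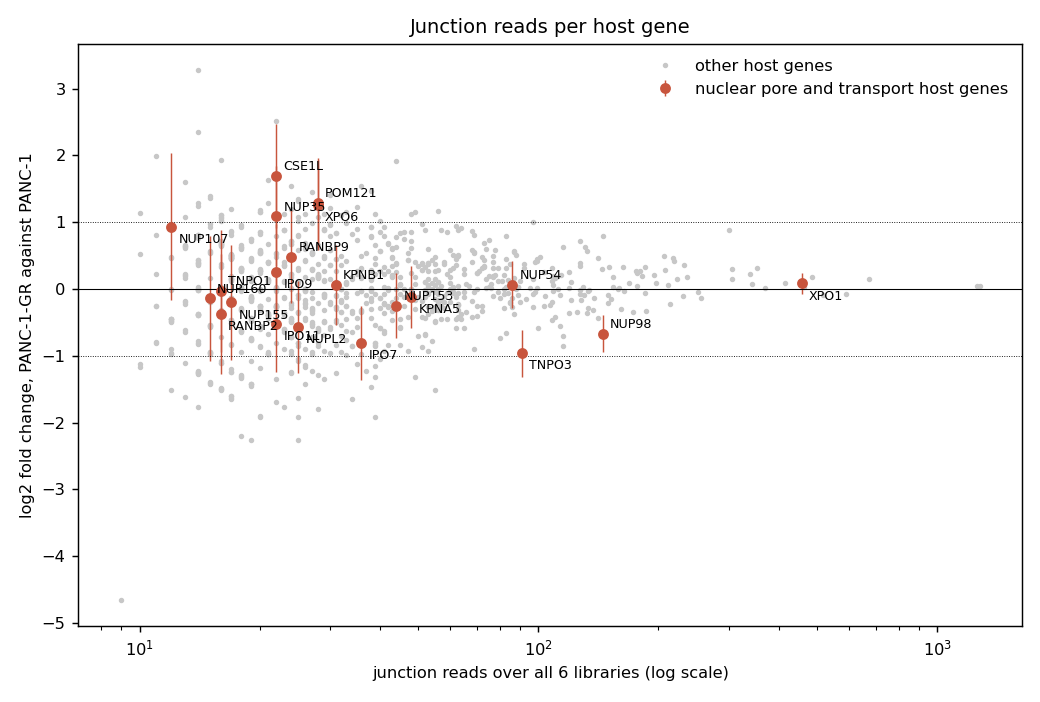
Log2 fold change of PANC-1-GR against PANC-1 for the reads summed per host gene (edgeR) against reads over all 6 libraries on a log scale. The 21 tested members are red with whiskers of 1 standard error, the other tested host genes are grey, and dotted lines mark a 2-fold difference. XPO1 sits near 0, CSE1L, POM121, XPO6 and NUP35 lie above the upper line, and TNPO3 just inside the lower one.

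Pore and transport genes that the symbol rule does not take gave little to compare. Of 40 such gene symbols, which include NDC1 and its older name TMEM48, 13 had a circle, with 22 circles and 100 reads in all. NMD3, an adaptor of ribosome export, and SNUPN, the import adaptor of spliceosomal snRNPs, were the 2 tested as host genes, with log2 fold changes of 0.60 and 1.39, and neither had an unadjusted p under 0.05 in edgeR's quasi-likelihood test. Of 21 nuclear envelope and lamina genes, 5 had a circle, with 11 circles and 47 reads, and none reached the filter.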

How the data were processed

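Total RNA of 6 libraries was sequenced, 3 of PANC-1 and 3 of PANC-1-GR, grouped and numbered by the sample labels. The authors deposited back-splice junction counts per circRNA and library with hg19 coordinates, and beside them log2 CPM values from edgeR, which were not used. CASAVA 1.8, BWA and hg19 are named in the submitters' processing notes. The junction caller was not given in the sources used here. Extraction notes speak of tissue and plasma, whereas the labels name cell lines. The table had 0 columns of other samples.

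Counts were fitted over the whole table with edgeR 4.0.16 in R 4.3.3 (quasi-likelihood, two-sided, TMM, prior count 0.125, no block), per circle and per host gene, and adjusted p-values are Benjamini-Hochberg over all tested features. The script was tested on simulated data. A standard error is the log2 fold change divided by the square root of F. Intervals are 95% Clopper-Pearson, and the floor is 3 reads over a line. Exon numbers are those of GENCODE 29, matched within the host gene by equal genomic span and spliced length, with no conversion of hg19 coordinates, so printed sequences are those of the matched exons.

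Named were member circles that passed the filter, the 12 with most reads, those called without the filter and hsa_circ_0070033, and host genes with at least 20 reads, at least 4 junctions or a call. Other members are named for completeness or were chosen after their values were seen. The members and lists were chosen with earlier results of these data known. Alternatives were RLE factors, totals alone, no filter, at least 10 reads in 3 libraries, DESeq2 1.42.0, the exact test of edgeR, voom of limma 3.58.1, a replicate block, a 1.5-fold threshold and leaving out each library.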

Additional observations from a re-analysis of the deposited data

How the results depend on the processing

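The count of 1 called member circle became 3 with no filter and ranged from 0 to 2 when 1 library was left out. The count of 1 called member host gene became 3 with no filter, 0 with DESeq2, 2 with limma-voom and 3 at a 1.5-fold threshold, and ranged from 0 to 3 with 1 library left out. Over all features, 41 called circles became 124 with no filter, 6 with at least 10 reads in 3 libraries and 14 with DESeq2, and 40 called host genes became 82, 4 and 17 in these settings and 61 at a 1.5-fold threshold. With 1 library left out, 38 to 52 of all 969 tested circles and 39 to 52 of all 1093 tested host genes were called. RLE factors, totals alone and the edgeR exact test kept the count of member calls at 1 for circles and for host genes. The summed level differed between the lines by -16.3 per 10000 and by -22.8 to -6.06 with 1 library left out.

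The study's text calls the lines paired, but no source used here says that a shared number marks a shared culture or day. Deviations of same-numbered libraries from their group means had correlations of 0.0272, 0.0131 and 0.0143. Those of differently numbered libraries ran from -0.0308 to 0.0156. All were small, and the numbers were not taken as pairs, though a pairing is not excluded. With the replicate block, 1 member circle and 1 member host gene were called, beside 28 of all circles and 35 of all host genes.

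For 34 named circles and host genes with a test, 443 of 484 values under alternatives kept direction and call, 8 lost and 12 gained the call, and 21 turned direction, none of them called. With 1 library left out, the log2 fold change ran from -0.18 to 0.52 for the KPNA5 circle of exons 2 to 7, -0.072 to 0.33 for hsa_circ_0001639, -1.38 to 0.12 for hsa_circ_0006965 of RANBP2, -0.26 to 0.041 for hsa_circ_0001017 and -0.013 to 0.82 for hsa_circ_0008223. For host genes it ran from -0.075 to 0.91 for IPO9, -0.31 to 0.084 for KPNA5, -0.22 to 0.30 for KPNB1, -0.56 to 0.38 for NUP153, -0.63 to 0.45 for NUP155, -0.73 to 1.13 for NUP160, -0.21 to 0.38 for NUP54 and -0.029 to 0.21 for XPO1. NUP54 was at -0.0058 with at least 10 reads in 3 libraries. The cause was not tested. Of the 140 circles, 87 had 2 to 4 reads, which is below the filter.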
